A study of Arabidopsis thaliana with 18 samples.

Results

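Among 18 Affymetrix ATH1 arrays of Arabidopsis thaliana Cvi-1, the 6 with the lowest title serials of each treatment (19 to 21 and 28 to 30) were divided into groups chosen by 1 measured value, the MAS5 signal of the probe set of UGT76B1 (AT3G11340). Arrays 20, 28 and 30 had a UGT76B1 signal at or above 1000 and are called the high arrays, and arrays 19, 21 and 29 had a signal below 100 and are called the low arrays. The division used 6 of the 18 arrays and ignored the treatment label. Because a measured value made the groups, the differences between them are given as descriptions without a test, and they are no evidence of an effect of salicylic acid (SA).

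Per the labels, the study set plants of the natural accession Cvi-1 given 0.02% silwet, an organosilicone surfactant used to wet leaves, against plants given 0.30 mM SA in the same silwet, with 9 arrays each. Every array therefore carried silwet, and no untreated array was used here. The high arrays comprised 1 silwet array (20, replicate 2) and 2 SA arrays (28, replicate 1, and 30, replicate 3). The low arrays comprised 2 silwet arrays (19, replicate 1, and 21, replicate 3) and 1 SA array (29, replicate 2). Each replicate number thus held 1 high and 1 low array, and in replicate 2 the labels ran the other way: the silwet array was high and the SA array was low. The sources used here do not state the tissue, the plants' age, the harvest time or whether replicates were separate plants, so the p-values below rest on a spread between arrays that may be technical alone.

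SA is a plant hormone that rises on infection by biotrophic pathogens and switches on defence genes through NPR1 and the TGA transcription factors. UGT76B1 is a glucosyltransferase that attaches glucose to SA and to isoleucic acid and so limits the active hormone. GRX480 encodes a glutaredoxin that binds TGA factors and responds to SA, and WRKY53 encodes a transcription factor of leaf senescence and defence. Growth and photosynthesis genes are often lower in leaves that have switched to defence.

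UGT76B1 had a signal of 1539.9 in array 20, 1238 in array 28 and 1552 in array 30. It had a signal of 39.3 in array 19, 77.6 in array 21 and 41.2 in array 29. No array lay between 77.6 and 1238, so the 2 groups were far apart, and this gap is what chose them. The mean log2 signal was 10.49 ± 0.19 in the high arrays and 5.65 ± 0.55 in the low arrays (SD, n = 3 each), a difference of 4.84 or 28.7-fold. The 12 remaining arrays had UGT76B1 signals from 10.3 to 76.8 with a median of 19.0, none of them above the highest low array.

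GRX480 had signals of 733, 613 and 701 in high arrays 20, 28 and 30, against 102, 192 and 167 in low arrays 19, 21 and 29. The groups did not overlap, and the mean log2 signal differed by 2.20. WRKY53 had signals of 442.7, 715 and 511 in the high arrays and of 159, 232 and 146 in the low arrays, a log2 difference of 1.64. Both genes separated the same arrays as UGT76B1 did, and the 12 remaining arrays stayed below every high array in both, with highest signals of 201 for GRX480 and 180.5 for WRKY53.

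**Figure D1:**
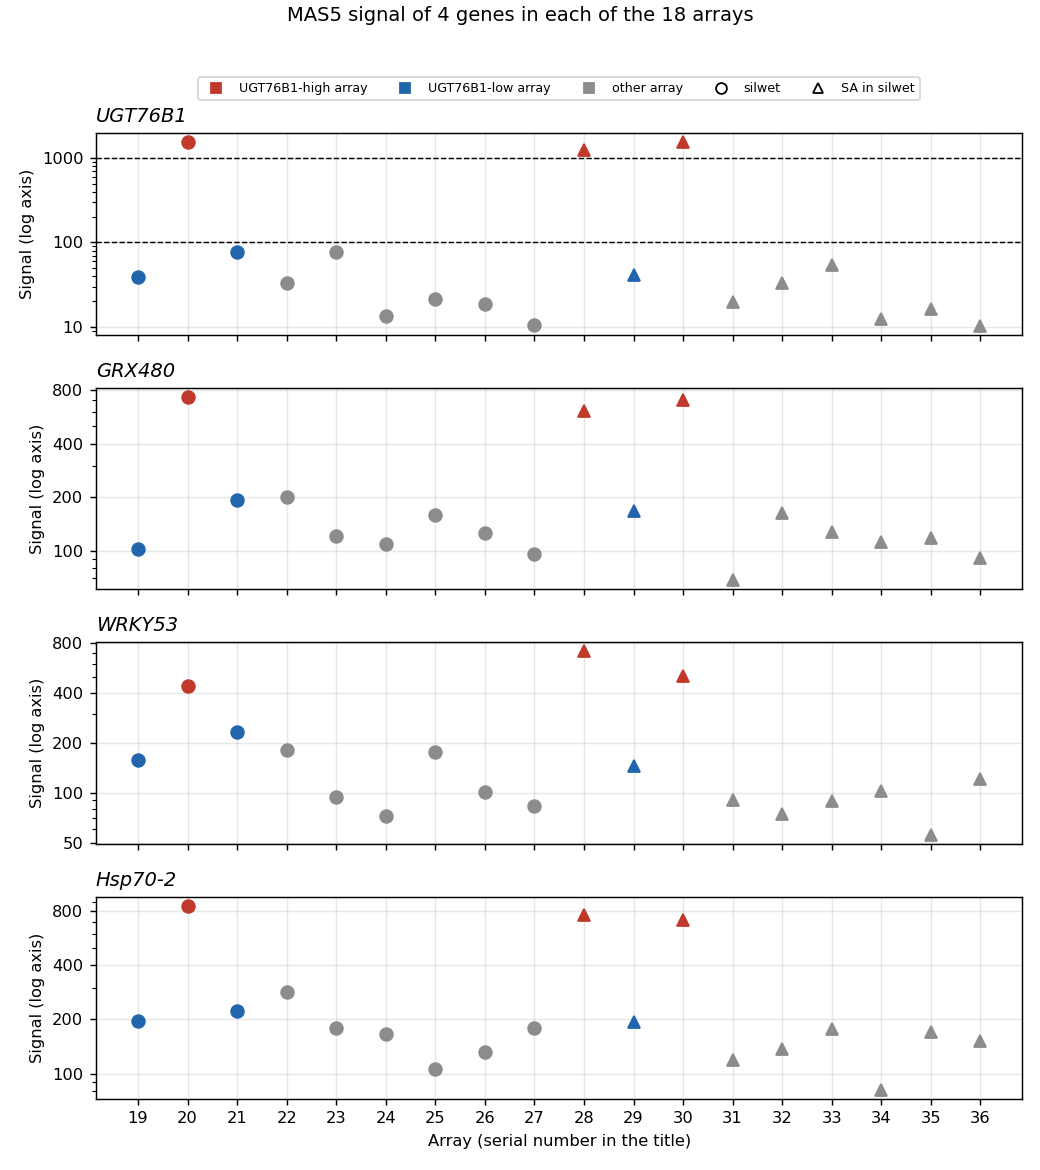
MAS5 signal (log axis) of UGT76B1, GRX480, WRKY53 and Hsp70-2 in each of the 18 arrays, ordered by title serial, with red for the high arrays, blue for the low arrays, grey for the 12 remaining arrays, circles for silwet and triangles for SA. Dashed lines in the top panel mark the thresholds of 1000 and 100, and in all 4 panels arrays 20, 28 and 30 stand above the other 15.

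The division by 1 gene extended to much of the transcriptome. Log2 signal was compared for the 13648 probe sets that reached the 40th percentile in their mean over all 18 arrays. A probe set was counted where the 3 high and 3 low arrays did not overlap and their mean log2 signals differed by at least 1, which is 2-fold. By that rule 694 probe sets (5.08%) were higher and 704 (5.16%) were lower in the high arrays. Without the 2-fold limit, 2313 probe sets (16.9%) had higher and 3561 (26.1%) had lower values in the high arrays with no overlap. The median difference over all 13648 probe sets was -0.11, and 40.1% of the differences were positive. Signs and values near zero are read against those levels. When each array was centred on its median instead, the median difference moved to 0.02 and the split became 910 higher and 483 lower, 65.3% higher where the deposited scaling gave 49.6%.

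Each replicate number gave its own high minus low difference from arrays that no other number shares. Across 13647 probe sets, UGT76B1 left out, these differences correlated at a Pearson r of 0.80 between replicates 1 and 2, 0.76 between 1 and 3 and 0.80 between 2 and 3. The matching Spearman values were 0.76, 0.73 and 0.76. The values describe probe sets, which are not independent replicates, and arrays 28 and 30 share a label, as do 19 and 21. In replicate 2, where array 20 is silwet and array 29 is SA, the direction by label is the opposite of that in replicates 1 and 3. Each pair was oriented by its UGT76B1 signal. For probe sets that vary with UGT76B1, the division therefore set the shared direction, and the correlations are given as description only. The sign was shared by all 3 pairs for 3626 positive and 5643 negative probe sets, 67.9% together. The difference was at least 2-fold in each pair for 414 higher and 354 lower probe sets.

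**Figure D2:**
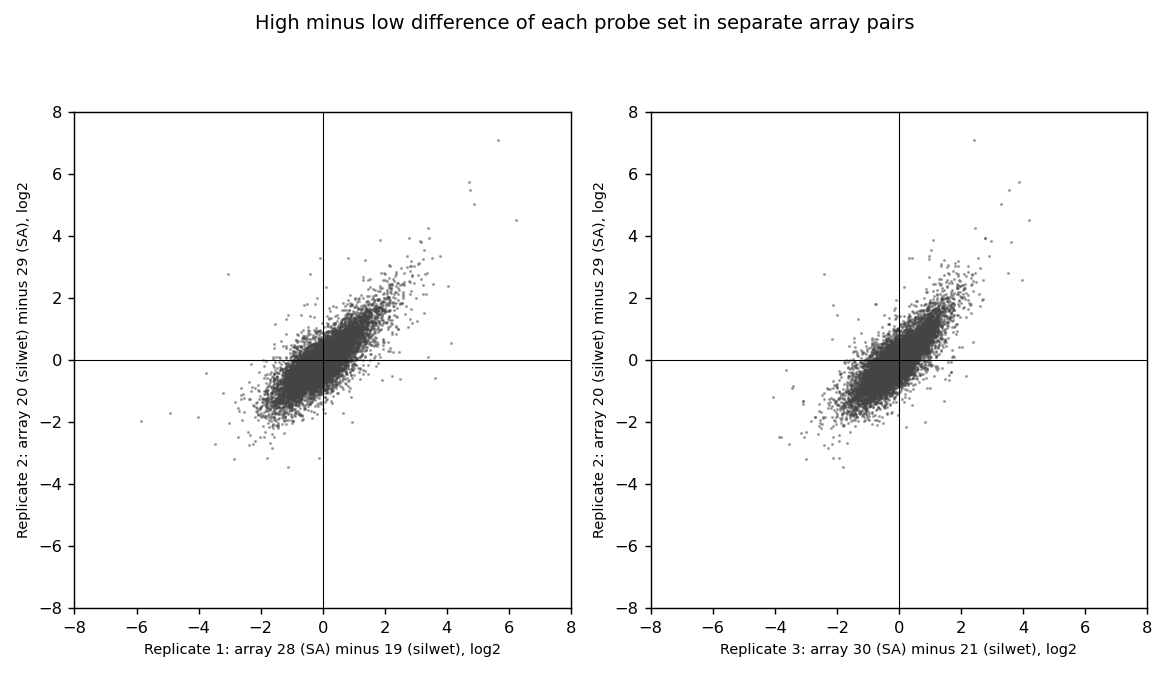
High minus low log2 difference of each of 13647 probe sets in replicate 2 (array 20 minus array 29, vertical axis) against replicate 1 (array 28 minus 19, left) and replicate 3 (array 30 minus 21, right), 1 point per probe set. The clouds lie along the rising diagonal (Pearson r 0.80 in both panels). Each pair was oriented by its UGT76B1 signal, and the treatment labels of replicate 2 run the other way.

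The same split was visible inside each label. The difference of the 2 high SA arrays from the low SA array, and of the high silwet array from the 2 low silwet arrays, correlated at r = 0.70 (Spearman 0.65) across the same probe sets. For UGT76B1, whose signal made the groups, the difference was 5.07 within the SA arrays and 4.80 within the silwet arrays, as the division requires. For GRX480 it was 1.97 and 2.39, and for WRKY53 2.05 and 1.21. The high and low arrays did not overlap in either gene. The sign within each label was therefore given in advance, and only the size is described.

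The 12 remaining arrays took no part in the division and show on which side the departure lay. Of the 694 higher probe sets, 612 (88.2%) had all 3 high arrays above every one of the other 15 arrays, and of the 704 lower probe sets 564 (80.1%) had all 3 below. Over all 13648 probe sets, the 3 high arrays lay beyond the other 15 in 3315 (24.3%), whereas the 3 low arrays lay beyond the other 15 in 79 (0.579%). The high arrays thus lay beyond all other arrays far more often than the low arrays did. The count of 79 leaves out any shift that the low arrays shared with the high arrays. High and low arrays together lay above the 12 remaining arrays in 150 probe sets and below them in 144. Probe sets in which the low arrays lay beyond the 12 remaining arrays alone were not counted. Relative to the mean of the low arrays, the median log2 level of the higher probe sets was 1.33 in array 20, 1.30 in array 28 and 1.501 in array 30. It was -0.20 in array 19, 0.29 in array 21 and -0.09 in array 29, and it ran from -0.33 to 0.24 in the 12 remaining arrays. Array 21 was nearest to the high arrays: it was the highest low array for 498 of the 694 higher probe sets and the lowest low array for 394 of the 704 lower ones. Array 30 was the highest of the high arrays in 370 of the 694 and the lowest in 356 of the 704.

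**Figure D3:**
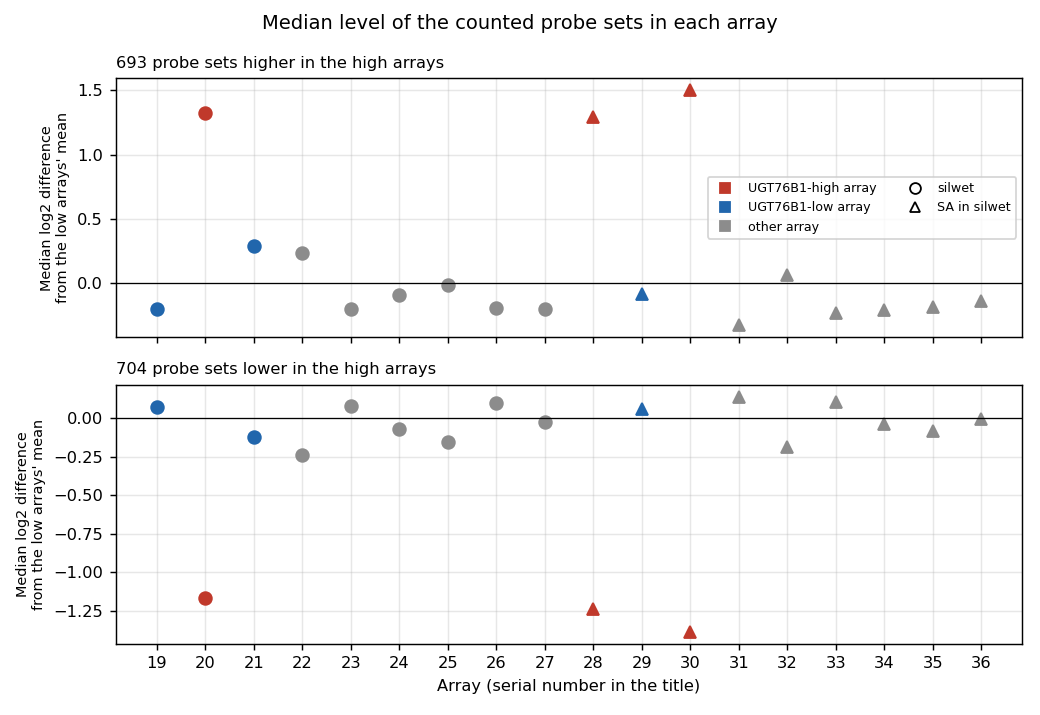
Median log2 difference from the mean of the low arrays in each of the 18 arrays, for the 693 probe sets higher in the high arrays (UGT76B1 left out, top) and the 704 lower ones (bottom). Arrays 20, 28 and 30 lie between 1.30 and 1.501 in the top panel and between -1.39 and -1.17 in the bottom panel, and the other 15 lie between -0.33 and 0.29 and between -0.24 and 0.14.

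Some measures of array quality moved with the division too. The median signal was 33.1 to 34.6 in the high arrays, 35.8 to 38.7 in the low arrays and 31.7 to 37.9 in the 12 remaining arrays. Signals under 16 made up 37.5% to 38.4% of probe sets in the high arrays and 34.7% to 36.2% in the low arrays. The 3' to 5' signal ratio of the GAPDH control probe sets, a measure of RNA integrity, was 1.003 to 1.16 in the high arrays, 1.18 to 1.31 in the low arrays and 0.879 to 1.197 in the 12 remaining arrays. The ratio for ubiquitin was 2.30 to 2.74 in the high, 2.66 to 3.34 in the low and 2.54 to 3.71 in the remaining arrays. The ratio for actin leaned the other way, at 0.997 to 1.29 in the high, 0.744 to 1.14 in the low and 0.577 to 1.19 in the remaining arrays. The part of these measures in the differences was not tested. The 3 reference genes AT2G28390, PEX4 and AT4G34270 differed by -0.13, 0.09 and -0.01 on the log2 scale, and in each of them the groups overlapped.

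Of the genes measured by a probe set of their own, 340 were counted as higher and 380 as lower. The 15 with the largest higher difference ranged from 2.55 to 5.04 on the log2 scale. In all 15, each pair differed at least 2-fold and the 3 high arrays lay above the other 15, values that the choice of the largest differences favours. The filter on low signals also used the high arrays: 4 of the 15 (AT1G08050, CXE20, AT1G02360 and AT4G30230) and 34 of the 694 higher probe sets would not have reached it on the other 15 arrays alone, against 0 of the 704 lower ones. Of the 15, 4 carry a symbol or synonym that says what they encode. AT3G13610, listed with the synonym F6'H1, encodes feruloyl-CoA 6'-hydroxylase, which makes the precursor of the coumarin scopoletin. Its signal was 236, 372.7 and 225 in high arrays 20, 28 and 30, and 7.5, 42.5 and 1.74 in low arrays 19, 21 and 29. The difference of 5.04 rests in part on the near-zero signals of arrays 19 and 29, where MAS5 signal is least precise, and the 12 remaining arrays ranged from 20.1 to 85.5. UGT76B1 came next, and UGT73D1, a glucosyltransferase of the same superfamily, differed by 2.61, with signals of 146, 187 and 91.6 against 19.4, 44.4 and 12.6.

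CXE20, a carboxylesterase of the family that also holds the gibberellin receptors, had signals of 108, 88.7 and 133 in the high arrays and 32.0, 8.59 and 18.0 in the low arrays. The other 11 genes are named by locus alone and are given without a role. AT3G28510 differed by 4.58, with signals of 423, 499 and 483 in high arrays 20, 28 and 30 and of 18.7, 41.3 and 9.61 in low arrays 19, 21 and 29. AT5G03350, which differed by 3.53, had 1693, 1308 and 1418 against 147, 115 and 122. AT5G44570 had 1187, 1018 and 1319.7 against 89.7, 227 and 122. In these 3 genes the lowest high array exceeded the highest low array more than 4-fold. AT5G46230 (2.77), AT4G22530 (2.69), AT1G08050 (2.68), AT4G19370 (2.64), AT1G02360 (2.63), AT1G52950 (2.58), AT4G30230 (2.58) and AT1G57650 (2.55) completed the 15, with log2 differences as given.

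**Figure D4:**
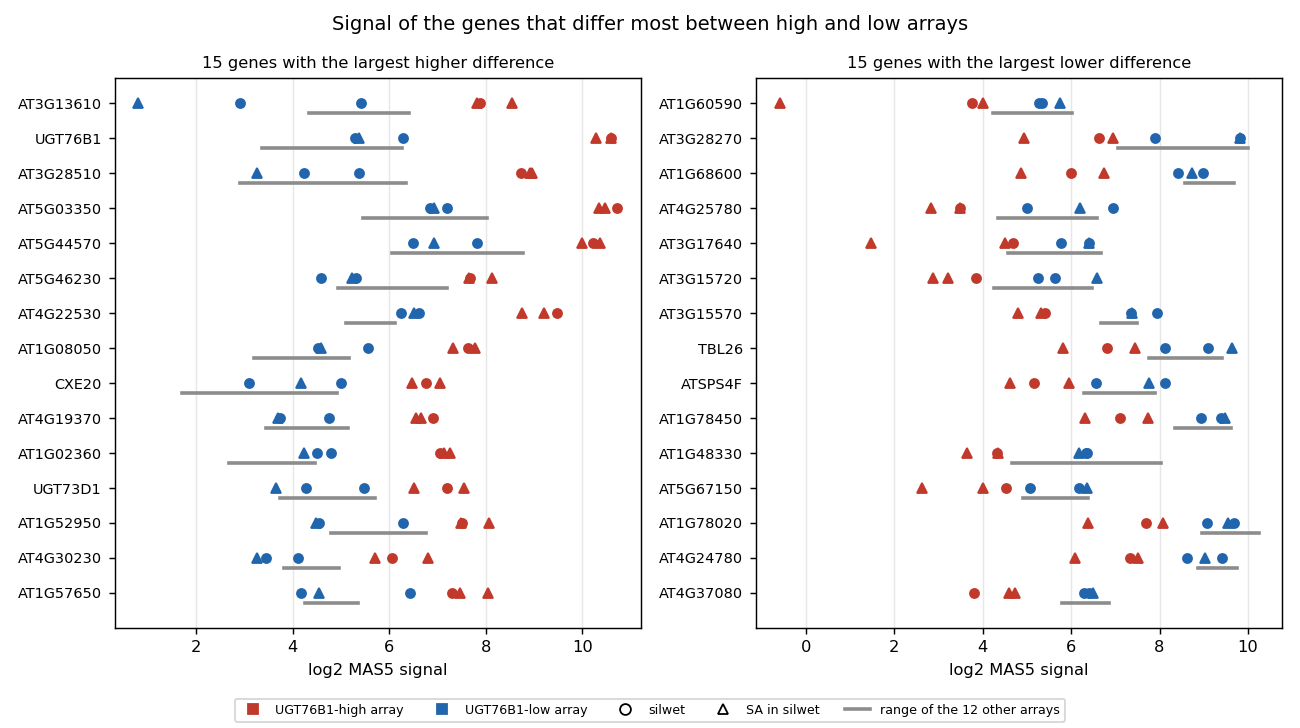
Log2 MAS5 signal of the 15 genes with the largest higher difference (left) and the 15 with the largest lower difference (right), 1 point per array, with red for high arrays, blue for low arrays, circles for silwet and triangles for SA, and a grey bar for the range of the 12 remaining arrays. The red points lie outside the grey bar in all 15 genes on the left and in 14 of the 15 on the right, AT3G17640 being the exception.

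The counted higher genes that carry a symbol numbered 44, UGT76B1 among them, with a median of 2.45-fold. The largest difference besides UGT76B1, on which the arrays were chosen, was 6.36-fold (CXE20). In 37 of the 44 the 3 high arrays lay above the other 15, as in 88.2% of all counted higher probe sets. Here and for the lower genes, symbols are grouped by role only for reading, after the values were seen, and no theme is claimed for either side. Several of the higher genes act in protein folding and quality control. Hsp70-2, a cytosolic chaperone, had signals of 856, 760.3 and 718 in high arrays 20, 28 and 30 against 197, 224 and 194 in low arrays 19, 21 and 29. Fes1A, a partner of Hsp70, differed by 1.23, and its relative Fes1B was on the opposite side at -1.19. The glycan-trimming enzymes ENGase85A and ENGase85B differed by 1.31 and 1.16. SGT1A, a co-chaperone of immune receptors, differed by 1.25, with array 21 at 109 between the other low arrays (47.7 and 46.5) and the high arrays (142 to 160.3).

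Some of the higher genes act on hormones. GH3.3, which joins auxin to amino acids, differed by 2.06, with signals of 207, 95.6 and 206 against 26.6, 53.2 and 39.9. Of 11 genes of the auxin response list with a probe set of their own, 3 reached the filter. The other 2 of these, the repressors IAA18 (-0.15) and IAA29 (-0.32), overlapped between the groups, and the median of the 3 was -0.15. IAGLU, which attaches glucose to auxin, differed by 1.55, and the gibberellin receptor GID1B by 1.58. Stress regulators included the zinc-finger repressor STZ, also called ZAT10, at 1.74, and WRKY6, a senescence-associated factor, at 1.12. The other gene of the senescence list, SAG29, differed by -0.31, and its groups overlapped. The subtilisin-like proteases SBT3.3, which is tied to immune priming, and SBT3.5 differed by 1.18 and 1.71. SUFE2, an activator of the plastid cysteine desulfurase that supplies sulfur to iron-sulfur clusters, reached 597, 496 and 479.8 against 126, 136 and 85.4, a log2 difference of 2.20. Organelle and membrane genes included NDB2, a mitochondrial external NAD(P)H dehydrogenase, at 1.25, and the tetraspanin TET8, found on plant extracellular vesicles, at 1.23. NDB2 varied little within each group, with 715, 721 and 591 in the high arrays and 287, 284 and 278 in the low arrays.

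The 54 counted lower genes with a symbol lay between 2.03-fold and 4.79-fold, with a median of 2.35-fold. In 40 of them the 3 high arrays lay below the other 15, as in 80.1% of all counted lower probe sets. The 15 largest lower differences of any named gene ran from -3.06 (AT1G60590) to -2.02 (AT4G37080). AT1G60590 had a signal of 0.664 in array 28, close to zero, and 13.6 and 16.1 in the other high arrays, against 38.8, 40.3 and 53.6 in low arrays 19, 21 and 29. AT3G28270 had 98.8, 123 and 30.4 in the high arrays and 897, 239.9 and 903 in the low arrays, so array 21 lay between the rest of the 2 groups. The remaining loci without a symbol were AT1G68600, AT4G25780, AT3G17640, AT3G15720, AT3G15570, AT1G78450, AT1G48330, AT5G67150, AT1G78020 and AT4G24780, at -2.84 to -2.04.

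Several of the lower genes with a symbol act in carbohydrate metabolism or in the chloroplast. ATSPS4F, a sucrose-phosphate synthase, had signals of 35.9, 61.5 and 24.5 in high arrays 20, 28 and 30 and of 277, 94.3 and 217 in low arrays 19, 21 and 29. PWD and DPE1, enzymes of starch breakdown, differed by -1.09 and -1.20, and TMT2, which loads sugars into the vacuole, by -1.29. Chloroplast biogenesis was represented by CRR21 (-1.85), CRR42 (-1.39) and CRR41 (-1.20), needed for the plastid NDH complex. LPA66 (-1.29) and LPA19 (-1.18) act in photosystem II biogenesis, CFM3A (-1.34) in plastid RNA splicing and CHLM (-1.12) in chlorophyll synthesis. CaS, a thylakoid calcium-sensing protein, had 197, 191 and 122 against 519, 375 and 401. In whole-tissue RNA, fewer cells of a type and less RNA per cell cannot be told apart.

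Other lower genes act in growth or at the cell wall. TBL26, of the trichome birefringence-like family of wall acetylation enzymes, had signals of 112, 175 and 56.6 in the high arrays against 549, 279 and 799 in the low arrays. The endoglucanases GH9C2 and GH9B13 differed by -1.81 and -1.48, the expansins EXPB3 and EXPA8, which loosen walls, by -1.42 and -1.15, and the beta-tubulin TUB5 by -1.07. STOMAGEN, a secreted peptide that promotes stomata, had 38.9, 39.4 and 43.6 against 125, 123 and 108, a log2 difference of -1.54 with little spread in either group. THI2.1, a thionin used as a marker of jasmonate response, differed by -1.44, with low array 29 at 212 and the other low arrays at 74.6 and 69.5.

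Lists of related genes were then read in full against the 5.08% and 5.16% of all probe sets counted as higher and lower. The matching shares without overlap were 16.9% and 26.1%. Of the 13648 probe sets, the 3 high arrays lay above the other 15 in 1453 and below them in 1862. Of 39 lists, 23 had at least 3 genes with a measured probe set of their own, and many well-known members (PR1 among them) had none in the annotation used. Measured means that the probe set reached the filter on low signals. That filter left, for example, 8 of 22 cytochromes P450 and 5 of 9 U-box ligases. In the SA list, it left 4 of 5. The filter's mean included the high arrays, which favours genes high in them, and the SA gene that fell below it is not described. The 4 measured genes were all higher without overlap and above the other 15 arrays: UGT76B1, GRX480, WRKY53 and SAG101 (0.80), a partner of the immune regulator EDS1. Of these 4, 3 passed the 2-fold limit, and the list's median was 1.92 where that of all probe sets was -0.11. Both values include UGT76B1, which chose the arrays, so the list is described only. Of the others, GRX480 (2.20) and WRKY53 (1.64) passed the limit and SAG101 did not. In the pattern-triggered immunity list, none of 3 genes was counted: the bacterial EF-Tu receptor EFR differed by 0.95, its downstream kinase BIK1 by 0.70 and WRKY22 by 0.57. EFR and BIK1 did not overlap between the groups, and WRKY22 did. EFR had signals of 50.9, 54.9 and 56.1 in the high arrays and 23.8, 36.5 and 25.2 in the low arrays.

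Among 4 genes of protein folding in the endoplasmic reticulum, 0 were counted at 2-fold. The co-chaperone ATERDJ3B (0.79) and the unfolded protein response factor BZIP60 (0.70) were higher without overlap, as were 16.9% of all probe sets. In both, the high arrays also lay above the other 15, as in 1453 of all 13648 probe sets. The calreticulin CRT1b differed by 0.27 with overlap. Of 16 vesicle traffic genes, 13 had a positive difference, as did 40.1% of all probe sets. Without overlap, 6 were higher and 3 lower (16.9% and 26.1% of all probe sets). Only 1 was counted, VPS60.1 (1.14), of the endosomal sorting machinery. The list's median was 0.34, and SEC10, a subunit of the exocyst, differed by 0.83. Of 10 autophagy genes, ATG8B (1.35) and ATG8H (1.30), which coat the autophagosome membrane, were counted and the median was 0.13. ATG8B had 209, 235 and 215 against 90.6, 96.0 and 73.3. Of 5 U-box ubiquitin ligases, PUB24, a brake on pattern-triggered immunity, was counted at 1.33.

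The glycosyltransferase list as measured held only genes with a UGT symbol, so IAGLU, counted as higher above, was not in it. Of 47 listed genes with a probe set of their own, 24 reached the filter. As a group, these 24 did not follow UGT76B1. Among them, 2 were counted as higher: UGT76B1, which chose the arrays, and UGT73D1. Counted as lower was 1 (UGT78D1, a flavonol rhamnosyltransferase, -1.08), and the median was -0.03. Of 9 glutathione transferases 0 were counted as higher and 2 as lower, GSTU18 (-1.11) and GSTU26 (-1.06). Of 8 cytochromes P450, CYP71B23 (1.29) was counted as higher and its relative CYP71B26 (-1.28) as lower. Among 10 cell wall remodelling genes XTH29 (1.45) was higher and XTH32 (-1.27) lower, so detoxification and wall families held members on both sides.

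Photosynthesis genes of the nucleus leaned lower by small amounts. All 8 genes of the photosystem and light-harvesting list had negative differences, where 40.1% of all probe sets had positive ones. Their median was -0.27 against -0.11 for all probe sets. Without overlap, 4 of them were lower, as were 26.1% of all probe sets, but 0 were counted at 2-fold. PSB27, which assists photosystem II assembly, had 846, 845 and 795 in high arrays 20, 28 and 30 and 1513, 1118 and 1387 in low arrays 19, 21 and 29. All 4 genes of the Calvin cycle and photorespiration were also negative, with a median of -0.52, 3 of them without overlap: hydroxypyruvate reductase HPR (-0.74), phosphoribulokinase PRK (-0.64) and Rubisco activase RCA (-0.29). Probe sets for 65 genes of the chloroplast genome had a median of -0.07, close to that of all probe sets. Without overlap, 1 was higher and 2 were lower, where 16.9% and 26.1% of all probe sets were. Among 5 genes of abscisic acid, drought and cold response 0 were counted, with a median of -0.46 and COR15B, a chloroplast protein of freezing tolerance, lowest at -0.60.

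**Figure D5:**
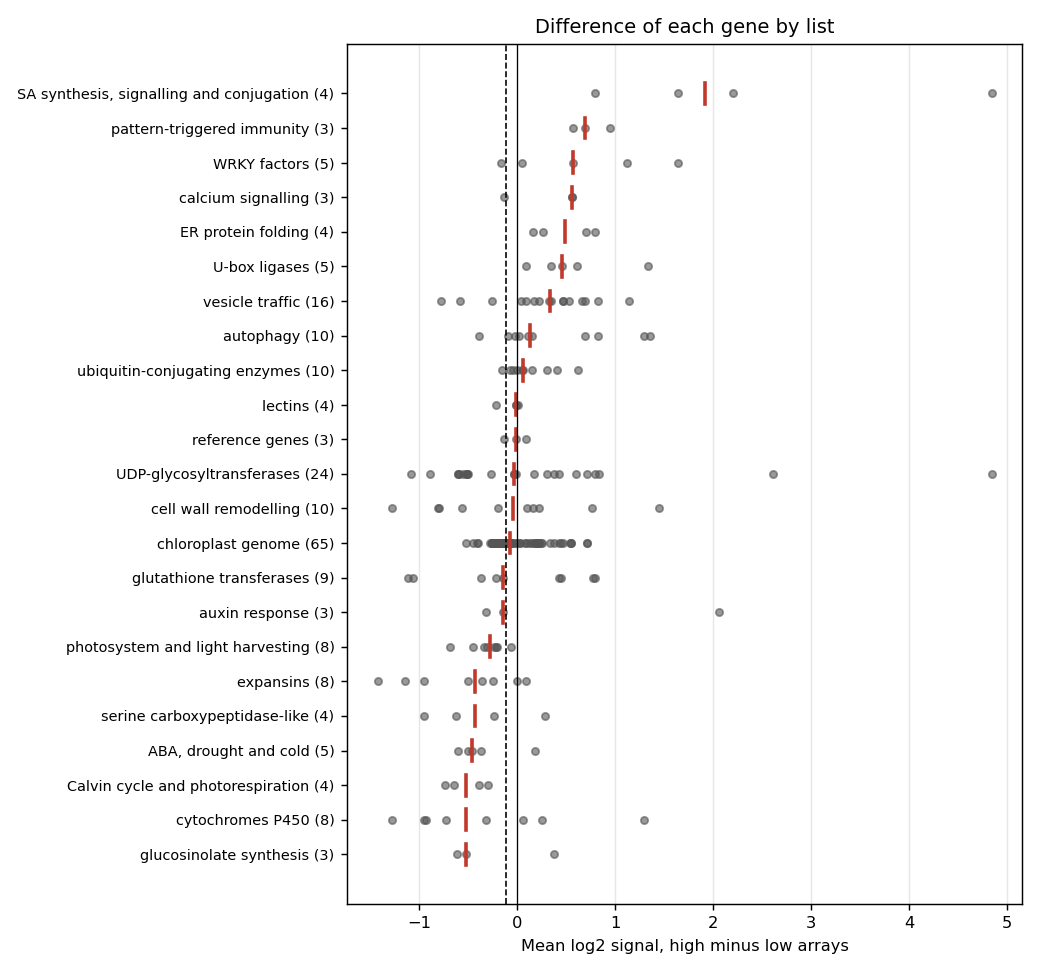
Difference of mean log2 signal, high minus low arrays, of every measured gene in the 23 lists with at least 3 genes (number in brackets), 1 point per gene, with a red bar for the list's median, a solid line at zero and a dashed line at the median of all probe sets (-0.11). The SA list has the highest median (1.92) and the glucosinolate list the lowest (-0.53). The SA median includes UGT76B1, farthest right, which chose the arrays.

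As a check of the tissue, the nuclear photosynthesis genes had high signals in all 6 arrays (RCA 2171 to 3247). The root-hair expansins EXPA7 and EXPA18 were at or below 16.1 and 16.3 in every array of the series, and the root beta-glucosidase PYK10 was at 213 to 291 in the high arrays and 243 to 324 in the low arrays. For the flower, pollen and seed markers the annotation used listed no single-gene probe set. Irrespective of the division, all 6 of these arrays lay above the 12 others for 150 of the 13648 probe sets (1.1%) and below them for 144 (1.06%). PUB23, a close relative of PUB24, was at or above 99.0 in the 6 and at or below 49.5 in the 12, and the calmodulin-like CML42 at or above 198 against at or below 123. BIK1, CML30, Fes1A and AT4G22530 were likewise higher in all 6 than in any of the 12, among the named genes, and CYP71B36, a cytochrome P450, was lower in all 6 (at or below 37.0) than in any of the 12 (at or above 43.8).

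The labels allow a test that does not use the division: SA against silwet. Within the 6 arrays (3 SA, 3 silwet), limma with Benjamini-Hochberg adjustment called 0 of 13648 probe sets (0%). The smallest adjusted p was 0.0805, and 40 had an unadjusted p under 0.05. The wide spread within each label limits this test, so the count of 0 does not show that changes were absent. UGT76B1 was 1.36 (SE 1.74) higher on the log2 scale in SA than in silwet, with an adjusted p of 1, since 1 array of each label lay on the far side. GRX480 differed by 0.78 (SE 0.80) and WRKY53 by 0.57 (SE 0.63). The difference of UGT76B1 turned to -0.45 without replicate 1 and to -0.12 without replicate 3. Without replicate 2 it was 4.65, but the labels of the 4 arrays left then coincide with the division, so that value repeats what chose the arrays and no p is read from it.

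In the 12 remaining arrays (6 SA, 6 silwet), which the division did not use, limma called 0 probe sets (0%) and 243 had an unadjusted p under 0.05. UGT76B1 differed by -0.17 (SE 0.47), GRX480 by -0.26 (SE 0.21) and WRKY53 by -0.36 (SE 0.24), SA minus silwet. Over the probe sets higher in the high arrays, the median SA difference in these 12 arrays was -0.10. Of them 24.7% were positive, where 47.4% of all probe sets were. Over the lower ones the median was 0.03, with 57.1% positive. Probe sets are not independent, and the higher set stood highest in 1 silwet array, 22. Its median level from the low arrays' mean was 0.24 there, -0.21 to -0.01 in the other silwet arrays and -0.33 to 0.06 in the SA arrays. The 15 genes with the largest higher difference gave SA differences from -0.69 to 0.39, 3 of them positive and 1 with an unadjusted p under 0.05. The 15 largest lower ones gave -0.20 to 0.57, 11 of them positive and 0 under that p. The interaction, the SA difference in the 6 arrays minus that in the 12, had 0 calls (0%) and 179 unadjusted p under 0.05 by limma.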

How the data were processed

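RNA of 18 samples was measured on Affymetrix ATH1 arrays, 1 array each. The table the authors deposited holds signal intensity, which the submitters' processing notes credit to MAS5; the sources used here give neither settings nor version. The deposited intensity values are linear and complete, and every array has a 2% trimmed mean of 100.01, so no further scaling was applied. MAS5 signal varies most at low intensity, and scaling hides changes in total RNA. Detection calls were not used here, and precision is limited by the number of arrays.

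Control probe sets (64 of 22810) were left out and log2 was taken without a pseudocount. Probe sets with a mean log2 signal over the 18 arrays at or above the 40th percentile (4.31, a signal of 19.9) were kept, 13648 of 22746. The platform annotation names a single gene for 13513, several for 503 and none for 8730; current symbols came from the TAIR10.1 gene table. Of the kept probe sets 7342 had 1 gene, for 7269 genes, and 6306 were left unnamed. A gene with several probe sets (71) took the probe set of highest mean log2 signal; in 18 of these genes the probe sets differed in sign. Similar genes can share a probe set.

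High minus low is the difference of mean log2 signal, and folds are on that scale. The test of SA against silwet used limma 3.58.1 under R 4.3.3 (lmFit, eBayes with intensity trend) and called probe sets whose p after Benjamini-Hochberg adjustment was under 0.05; it was checked on simulated data. Same-numbered arrays of the 6 deviated with correlations of -0.00, -0.70 and 0.12, so the numbers were not taken as pairs there; in the 12 others they were 0.64, 0.22 and 0.56, and a replicate block changed no call.

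The genes named were UGT76B1, GRX480 and WRKY53; the 15 higher and 15 lower genes with the largest difference among those without overlap; and the 3 largest absolute differences of each list with at least 3 measured genes. Other genes with a symbol were picked with their values in view. The arrays, lists and rules were chosen with earlier results of these data known. The patterns for 2 lists (chloroplast genome, thionins and defensins) were adjusted to the annotation's symbols afterwards. The settings varied were the pseudocount (16), the filter (none, or the 60th percentile), the scaling (quantile normalization or median centring), leaving out each replicate, limits of 1.5-fold and 4-fold, each label alone, a replicate block and no intensity trend.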

Additional observations from a re-analysis of the deposited data

Results flagged for a closer look

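In the 12 arrays outside the division, the 94 genes named by rule or from the lists, but not the others named for having a symbol, were examined for 1 array far from the other 5 of its label, by the gap to the nearest array as a share of the whole range. Of 188 such groups, 14 had a far array, and chance gives about 1 in 20. The high and low arrays were not examined, so none of them could be flagged, and some arrays were far in more than 1 group. Among genes higher in the high arrays, AT3G28510 was lowest in array 35 (gap 0.641), AT5G46230 highest in array 34 (0.632), AT4G22530 highest in array 32 (0.733), CXE20 lowest in array 27 (0.738), AT4G19370 lowest in array 25 (0.651) and GH3.3 lowest in array 34 (0.664). Among genes lower or little different there, BCAT4 was lowest in array 31 (0.751), LHCB4.2 lowest in array 31 (0.747) and EXPB3 lowest in array 31 (0.648) and in array 22 (0.828). AT2G31790 was highest in array 27 (0.64), HPR highest in array 27 (0.647), CML42 highest in array 35 (0.684) and JAL23 highest in array 33 (0.705). Array 31 stood low in 3 of these genes, and array 27 stood apart in 3.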

How the results depend on the processing

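Of the probe sets kept under each setting, 5.08% were counted as higher and 5.16% as lower with the settings of the report. The shares were 3.77% and 2.66% with a pseudocount of 16, 4.30% and 5.68% without the filter (978 and 1293 of 22746 probe sets), 4.98% and 5.59% with the filter at the 60th percentile (453 and 509 of 9099), 5.28% and 4.37% after quantile normalization, and 6.67% and 3.54% after median centring. Leaving out a replicate gave 5.02% to 6.17% higher and 5.65% to 5.79% lower. A 1.5-fold limit gave 10.6% and 14.98%, and a 4-fold limit 0.681% and 0.234%. Within the SA arrays alone the shares were 7.03% and 8.12%, and within silwet 5.28% and 6.07%. Each label alone compares 2 arrays with 1. Groups of fewer arrays are more easily free of overlap. These shares, and those with a replicate left out, are therefore not like for like with 5.08% and 5.16%. Of 1638 values of the 170 named genes under these settings, 167 moved by more than the pooled SD within the groups and 23, of 14 genes, changed sign. The 14 include PUB23 (-0.05) and UGT74B1 (-0.12) within the SA arrays, and CML30 (0.12) and PEX4 (-0.03) without replicate 1. None is among the 123 named genes counted as higher or lower (0 of 1182 values changed sign). Those 123 were counted because their groups did not overlap, so only quantile normalization or median centring could have reversed a sign. The 0 is thus no measure of robustness. UGT76B1 did not reach the filter at the 60th percentile. A pseudocount shrinks differences at low signal by construction; for the other moves the cause was not tested.

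For SA against silwet within the 6 arrays, limma called 0 probe sets under each alternative with the intensity trend; without the trend it called 1, which has no single gene (log2 -2.75, SE 0.214, adjusted p = 0.0421). Unadjusted p under 0.05 numbered 13 without replicate 1, 8 without replicate 3 and 25 with a replicate block. The UGT76B1 difference ranged from -0.45 (without replicate 1; -0.12 without replicate 3) to 4.65 (without replicate 2, where the labels coincide with the division). In the 12 other arrays limma called 0 under each alternative, the replicate block included (402 unadjusted), and UGT76B1 ranged from -0.75 to 0.15 when a replicate was left out (0.15 without replicate 1, 0.10 without replicate 2).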
